A study of Mus musculus with 12 samples.

Results

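A1005 and A1471 are mouse cell lines, both derived from spindloid mammary tumours, and the data compared their transcriptomes under each of 4 matched treatments. Both lines carry the genotype MMTV-Metmt;Trp53fl/+;Cre, in which the MMTV promoter drives a mutant Met receptor in mammary epithelium and Cre deletes the floxed allele of Trp53. Cells of each line were grown as tumourspheres, free-floating spheres that favour tumour-initiating cells, and exposed for 24 h to DMSO (the vehicle), Crizotinib (a Met inhibitor), PD173074 (an FGFR inhibitor) or the combination of both inhibitors. The comparison used 8 of the 12 RNA-seq libraries of the series, 4 of A1005 and 4 of A1471, chosen by the line and paired by treatment. The other 4 libraries came from A1129, a line of the same genotype that served as a reference point. The 4 libraries of a line are 4 treatments of that 1 line with 1 library each, and are not independent replicates, so the p-values below speak of how evenly the 2 lines differed across treatments and not of spindloid tumours at large. In bulk RNA, fewer cells of a kind and less RNA per cell cannot be told apart.

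Spindloid tumours of this model are built of elongated cells that have undergone an epithelial to mesenchymal transition, in which cell junction genes are shut down and matrix and migration genes are switched on. Mesenchymal cells lay down fibrillar collagens such as type I, whereas the basement membrane under an epithelium is built of type IV collagen and laminins. YAP, encoded by Yap1, is a transcriptional co-activator held in check by the Hippo kinases, and it promotes growth together with TEAD factors.

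The 8 libraries held between 13031492 and 17750476 counts, and between 99.8% and 99.9% of the counts of each fell on the 12874 genes that passed the filter on low counts. That filter was set by line, so a gene read in 1 line alone could pass it through that line. Shares of separating genes, for all tested genes and for the gene lists below, depend on this entry rule. Of these genes 7447 differed between the lines in edgeR's quasi-likelihood test with treatment as a block at an adjusted p under 0.05, which is 57.8%, with 3739 higher in A1005 and 3708 higher in A1471. A gene was taken to separate the lines when it passed that test and its log2 CPM (CPM, counts scaled to the effective size of the library, here with a prior count of 2) also differed by at least 1, a 2-fold difference, in the same direction under each of the 4 treatments. This held for 1657 genes, 12.9% of those tested, of which 1145 (8.89% of those tested) were higher in A1005 and 512 (3.98%) were higher in A1471. Every gene that differed 2-fold in 1 direction under all 4 treatments had also passed the test, so the fold requirement alone set this number. The smallest of the 4 differences was at least 4 on the log2 scale (16-fold) for 185 genes higher in A1005 and for 94 genes higher in A1471.

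The size of the line difference was nearly the same under each treatment. Its root mean square over the 12874 tested genes was 1.497 with DMSO, 1.47 with Crizotinib, 1.41 with PD173074 and 1.45 with the combination, on the log2 scale. Across genes, the difference with DMSO correlated with that under Crizotinib at r = 0.966, under PD173074 at r = 0.929 and under the combination at r = 0.864, a description over 12874 genes of the same 2 lines. Single treatments would have given longer lists, since 2947 genes differed 2-fold with DMSO, 2798 with Crizotinib, 2672 with PD173074 and 3111 with the combination.

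Genes of the fibrillar matrix were the most widely separated genes on the A1005 side. Efemp1 (ENSMUSG00000020467, mm10 chr11:28853204-28926743), which encodes the extracellular matrix protein fibulin-3, read 319, 235, 717 and 629 CPM in A1005 with DMSO, Crizotinib, PD173074 and the combination, and 0.136, 0.212, 0.561 and 0.472 CPM in A1471 in the same order of treatments, which is kept below. For this gene, named for its large smallest difference, the log2 difference lay between 9.41 and 10.21 in the 4 treatments (log2 fold change 10.40 ± 0.14 SE, adjusted p = 1.21e-06, edgeR). Col1a1 and Col1a2 encode the chains of type I collagen. Col1a1 read 226, 243, 521 and 735 CPM in A1005 and 0.06799, 0.283, 0.561 and 0.708 CPM in A1471. For Col1a2 the values were 131, 129.8, 433 and 748 CPM in A1005 and 0, 0, 0.561 and 0.786 CPM in A1471. In A1005 both chains were higher with PD173074 and the combination than with DMSO, while in A1471 they stayed below 1 CPM throughout. Lox, the lysyl oxidase that cross-links collagen, read 476, 353, 1068 and 1261 CPM in A1005 and 0.476, 0.496, 2.24 and 0.944 CPM in A1471, with log2 differences between 8.81 and 10.19 (log2 fold change 9.56 ± 0.24 SE, adjusted p = 3.88e-06, edgeR).

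The other genes at the top of the A1005 side had varied roles. Rspo3, a secreted enhancer of Wnt signalling, averaged 71.9 ± 21.2 CPM in A1005 and 0.129 ± 0.113 CPM in A1471 (SD, n = 4 treatments). Tnfsf11, which encodes the osteoclast-inducing cytokine RANKL, read 76.9, 23.6, 150.1 and 84.1 CPM in A1005, lowest with Crizotinib, and gave 1 count in all 4 libraries of A1471. Als2cl read 29.7, 29.6, 27.6 and 45.5 CPM in A1005 and had no count in A1471, where a limit of 3 counts over the 4 libraries puts A1005 at least 628-fold higher. Brinp3, Tmem45a, Selenbp1, Fam20c (a kinase of secreted proteins) and Bst1 (a cell surface ADP-ribosyl cyclase) completed the 12, with means between 61.5 and 125 CPM in A1005 and between 0.0529 and 0.166 CPM in A1471.

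On the A1471 side the gene with the largest smallest difference was Fndc3c1, a fibronectin type III domain gene on chromosome X, which read 211, 228, 164 and 119.7 CPM in A1471 and gave 1 count in A1005. Trim35, a tripartite motif gene, followed with 138, 136, 154 and 166 CPM in A1471 and 3 counts in A1005. Genes of cartilage and basement membrane matrix, a cytoskeletal motor and a mesenchymal transcription factor were also among the 12. Acan, which encodes the cartilage proteoglycan aggrecan, read 0, 0.06698, 0.0594 and 0.377 CPM in A1005 and 462, 411, 344 and 266 CPM in A1471. Myh10 (mm10 chr11:68691559-68816632), the heavy chain of non-muscle myosin IIB, read 0, 0, 0.119 and 0.484 CPM in A1005 and 388, 346, 343 and 308 CPM in A1471. Its log2 differences lay between -11.50 and -8.96 (log2 fold change -10.89 ± 0.42 SE, adjusted p = 1.13e-05, edgeR), whereas Myh9, the heavy chain of non-muscle myosin IIA, averaged 1329 ± 161 CPM in A1005 and 1062 ± 358 CPM in A1471 and did not pass the test (edgeR adjusted p = 0.0538). Prrx1 (ENSMUSG00000026586, mm10 chr1:163245119-163313710), a homeobox factor of limb and craniofacial mesenchyme, read 0.154, 0.402, 0.237 and 0.431 CPM in A1005 and 293, 301, 261 and 159 CPM in A1471. The level in A1471 was lowest with the combination, and the log2 differences still lay between -9.99 and -8.14 (log2 fold change -9.57 ± 0.24 SE, adjusted p = 3.37e-06, edgeR). Col4a6, a type IV collagen chain, read 150.4, 156, 307 and 665 CPM in A1471 and stayed at or below 0.484 CPM in A1005. Fzd3, a Wnt receptor, read 26.8, 33.99, 35.9 and 48.4 CPM in A1471 and gave 1 count in the 4 libraries of A1005. Scara3, Evc2, Evc, Pir and Gxylt2 completed the 12, with means between 29.4 and 90.9 CPM in A1471 and at most 0.139 CPM in A1005.

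**Figure D1:**
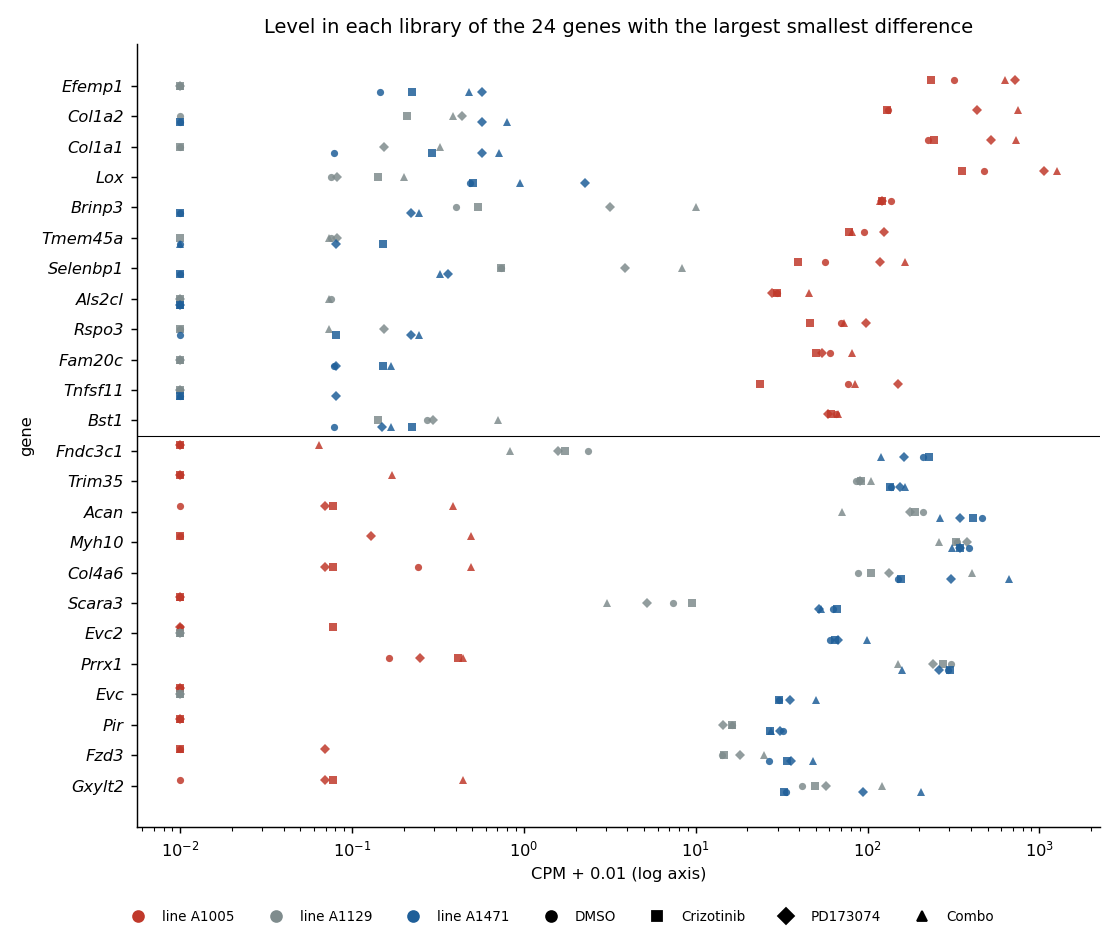
The level of the 24 protein-coding genes with the largest smallest difference over the 4 treatments, as CPM plus 0.01 on a log axis, with 1 symbol for each library of A1005 (red), A1129 (grey) and A1471 (blue). The 12 genes above the line were higher in A1005, and the 12 below it were higher in A1471. No library of one line reached the range of the other, which follows from choosing the genes by this difference. A1129, which was not used in that choice, lay near A1471 for most of the genes shown.

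Some genes were read in one line and almost absent from the other. Of the tested genes, 41 averaged at least 10 CPM in A1005 with at most 3 counts over the 4 libraries of A1471, and 16 of them had no count there. In the opposite direction 32 genes met the same limits, and 14 of these had no count in A1005. Chromosome X held 9 of these 32 genes (28.1%), among them Fndc3c1 and Pir, a nuclear iron-binding protein, against 2 of the 41 (4.88%) and 3.14% of all tested genes. Both lines read Xist, the RNA of the inactive X chromosome, at 123, 133, 151 and 75.997 CPM in A1005 and 74.4, 115, 66.7 and 60.1 CPM in A1471, and Xist passed the test without separating the lines (log2 fold change 0.61 ± 0.16 SE, adjusted p = 0.0175, edgeR). That call was lost without the DMSO pair (edgeR adjusted p = 0.0653) and without the treatment block (edgeR adjusted p = 0.108).

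A run of 3 neighbouring genes on chromosome 5 was read in A1471 and near absent from A1005. Evc and Evc2 encode partner proteins of the primary cilium that take part in Hedgehog signalling, and their starts face away from each other, Evc on the minus strand at 37289098-37336894 and Evc2 on the plus strand at 37338499-37425055 (mm10). Evc had no count in any library of A1005 and read 30.4, 30.4, 35.2 and 50.3 CPM in A1471, which is at least 763-fold higher at a limit of 3 counts. Evc2 had 1 count in A1005 and read 60.4, 64.3, 67.6 and 99.5 CPM in A1471. Crmp1, a neuronal cytoskeleton protein gene chosen after its values were seen, which overlaps the 3′ end of Evc on the other strand, had no count in A1005 and read 7.41, 8.497, 9.32 and 19.7 CPM in A1471. Whether reads were counted by strand is not given in the sources used here, so reads from the overlap of Crmp1 and Evc cannot be told apart. All 3 genes had no count in the 4 libraries of A1129 either. The genes on the flank did not share the pattern, since Wfs1 averaged 36.7 CPM in A1005 and 19.97 CPM in A1471, Man2b2 averaged 28.3 and 5.58 CPM and separated the lines the other way, and Stk32b had no count in either line. The 250 bases before the RefSeq starts of Evc and Evc2 (GRCm38.p6, the same build as mm10) are shown because these genes moved together, with each CG dinucleotide in capitals and each sequence on the strand of its gene.
Evc, chr5:37336882-37337131, minus strand: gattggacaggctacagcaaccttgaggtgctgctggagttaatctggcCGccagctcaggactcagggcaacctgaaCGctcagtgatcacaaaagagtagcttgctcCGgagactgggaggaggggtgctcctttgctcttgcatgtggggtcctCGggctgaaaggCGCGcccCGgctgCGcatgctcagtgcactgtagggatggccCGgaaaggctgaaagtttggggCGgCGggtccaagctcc
Evc2, chr5:37338228-37338477, plus strand: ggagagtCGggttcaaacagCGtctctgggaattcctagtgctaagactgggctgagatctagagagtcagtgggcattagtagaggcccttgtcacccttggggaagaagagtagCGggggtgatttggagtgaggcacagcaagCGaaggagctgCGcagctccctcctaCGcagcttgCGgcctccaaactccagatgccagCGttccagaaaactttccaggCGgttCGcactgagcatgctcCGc
Each of these held 11 CG dinucleotides, a pair of letters that reads the same on both strands, and 36.0% of the 27025 RefSeq promoters of this length, 1 per gene symbol, held as many or more.

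The reverse was seen for a group of neighbours on chromosome 6. Sgce and Peg10 are adjacent genes with facing-away starts that belong to an imprinted domain and are normally read from the paternal copy. Sgce, encoding epsilon-sarcoglycan, read 21.1, 19.2, 23.8 and 35.5 CPM in A1005 and gave 2 counts in A1471. Peg10, a gene derived from a retrotransposon, read 11.7, 13.7, 19.4 and 31.5 CPM in A1005 and had no count in A1471, at least 373-fold lower at a limit of 3 counts. Col1a2 lies upstream in the same direction as Peg10, and Casd1 between them averaged 59.2 CPM in A1005 and 37.1 CPM in A1471 and did not separate the lines. A1129 gave no count of Sgce and 1 count of Peg10. Of 29 imprinted genes listed 9 were tested, with a median difference of 0.81 against 0.00 for all tested genes. Of the 9, 4 (44.4%) separated as higher in A1005 and 1 (11.1%) as higher in A1471, against 8.89% and 3.98% of all tested genes. The others were Kcnq1ot1, a long non-coding RNA, with 4.63, 4.96, 4.22 and 2.85 CPM in A1005 and no count in A1471, Grb10, an adaptor that restrains insulin signalling, and Igf2r. Igf2r, the receptor that removes IGF2, was the member higher in A1471, at 359.8 ± 72.6 CPM in A1005 and 878 ± 152 CPM in A1471 (SD, n = 4 treatments). Sgce, Peg10 and Kcnq1ot1 passed the low-count filter through A1005 alone, so the 44.4% and the median follow in part from the filter.

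A long run of neighbouring genes at the start of chromosome 9 was higher in A1005. From the first tested gene of the chromosome, Alkbh8, to Slc36a4 (mm10 chr9:3335140-15743361), 42 of 45 tested genes separated the lines as higher in A1005, against 8.89% of all tested genes. The limits of the run were set after its values were seen, as the point where 3 tested genes in a row no longer separated the lines. Its median difference was 2.55 with DMSO, 2.48 with Crizotinib, 2.36 with PD173074 and 2.30 with the combination on the log2 scale. In the 25 tested genes that followed, the median was 0.37 and 2 separated as higher in A1005, and over the other 668 tested genes of the chromosome it was -0.05. A1129 lay nearer to A1471 here, with a median of 0.75 above A1471 and A1005 a median of 1.63 above A1129, and 44 of the 45 genes were higher in A1005 than in A1129.

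Yap1 (ENSMUSG00000053110, mm10 chr9:7931999-8004596, minus strand) was the gene of this run with the highest level by CPM in A1005 within its window. It read 751, 819.5, 744 and 736 CPM in A1005 and 128, 138, 133 and 138 CPM in A1471. All 4 log2 differences fell between 2.42 and 2.57 (log2 fold change 2.51 ± 0.07 SE, adjusted p = 4.47e-06, edgeR), so the treatments hardly moved it in either line. Birc2 and Birc3, neighbours of Yap1, also chosen after their values were seen, that encode the apoptosis inhibitors cIAP1 and cIAP2, averaged 138 ± 59.4 and 139 ± 49.2 CPM in A1005 against 27.1 ± 15.3 and 22.6 ± 7.55 CPM in A1471 (SD, n = 4 treatments). The other genes with the highest levels in the windows of this run were Tmem123, Arhgap42 (a GTPase-activating protein for RhoA), Amotl1 (an angiomotin family member that binds YAP), Cwc15 and Mre11a (a DNA double-strand break repair nuclease), with log2 differences between 1.71 and 3.43 over all treatments.

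Some genes of the run exceeded its median difference by far, and the caspases, Endod1 and Piwil4 among them were chosen after their values were seen. Casp1, which encodes the inflammatory caspase, read 287, 259.8, 281 and 474 CPM in A1005 and 4.62, 4.18, 7.4996 and 11.2 CPM in A1471. Casp4 and Casp12 next to it averaged 39.2 and 157 CPM in A1005 against 3.602 and 14.1 CPM in A1471. Mmp3, the matrix metalloproteinase stromelysin 1, read 528, 898, 78.3 and 39.5 CPM in A1005 and 2.45, 4.11, 1.33 and 0.708 CPM in A1471, so it was lower with PD173074 and with the combination in both lines while remaining separated. Mmp13, a collagenase, and Mmp10, stromelysin 2, averaged 61.5 and 28.3 CPM in A1005 against 1.51 and 2.16 CPM in A1471. Endod1 and Piwil4, a piRNA-pathway gene, averaged 124 and 25.3 CPM in A1005 against 0.576 and 0.0354 CPM in A1471. Outside the run, Col5a3, a type V collagen chain further along the chromosome, averaged 269 CPM in A1005 and 4.93 CPM in A1471.

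Genes known as targets of YAP and TEAD separated the lines at about the share of all tested genes. Of 15 such genes in a list written after the level of Yap1 had been seen, all were tested, 2 separated as higher in A1005 (Ccn2, which encodes CTGF, and Amotl1, itself in the run) and none as higher in A1471. This is 13.3% of the list against 12.9% of all tested genes, so it is not a result about these targets. Their median difference was 0.27, and 8 of the 15 were higher in A1005.

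**Figure D2:**
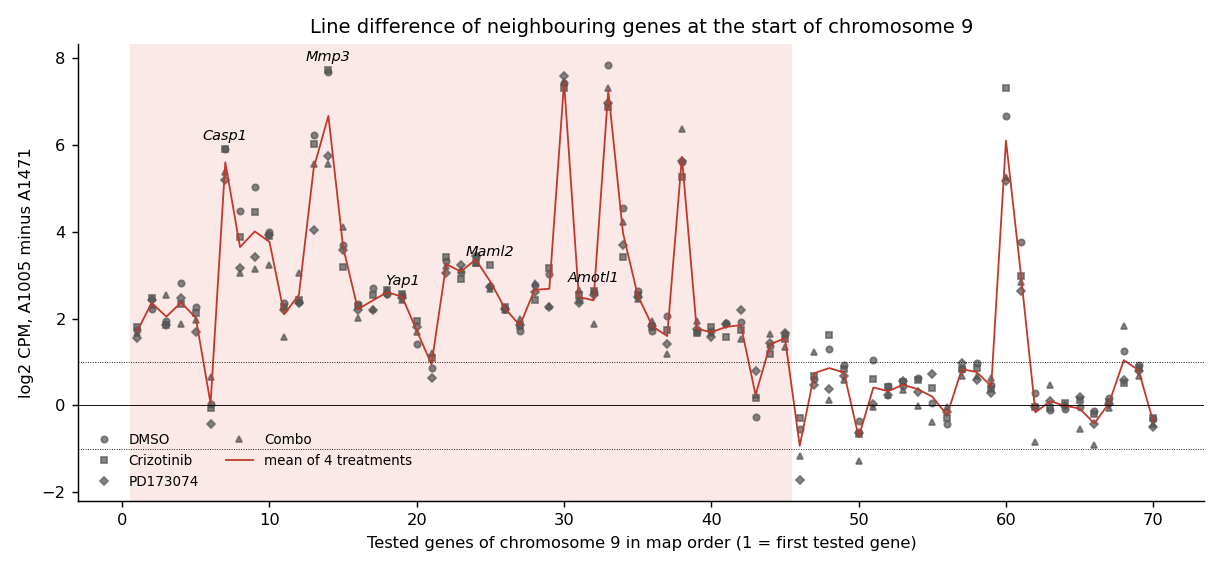
The difference in log2 CPM between A1005 and A1471 for the first 70 tested genes of chromosome 9 in map order, with 1 symbol per treatment and a red line through the mean of the 4 treatments. The shaded run of 45 genes had a median of 2.42, and the 25 genes to its right had a median of 0.37, with Col5a3 and its neighbour far above it.

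Smaller shifts were seen in the medians of chromosomes, which do not show how evenly a difference ran along a chromosome. The median difference over the tested genes of a chromosome was highest for chromosomes 15 (0.57 ± 0.03, SD over 4 treatments, 530 genes), 16 (0.41 ± 0.02, 399 genes) and 2 (0.41 ± 0.03, 1009 genes). It was lowest for chromosomes 18 (-0.54 ± 0.08, 361 genes), X (-0.39 ± 0.02, 404 genes) and 8 (-0.36 ± 0.04, 710 genes). The spread over treatments was far below these medians, which describe 2 lines and carry no test. Chromosome 15 held 104 genes separating as higher in A1005 and 8 as higher in A1471, which is 19.6% and 1.51% of its tested genes, against 8.89% and 3.98% of all tested genes. On chromosome X the balance was the opposite, with 20 higher in A1005 (4.95%) and 46 higher in A1471 (11.4%). Among windows of 25 neighbouring tested genes, those after the chromosome 9 run with the highest medians lay on chromosomes 1 (171437535-174031810, 1.31), 2 (122219993-126500674, 1.30) and 15 (76899910-78622019, 1.28). The lowest were on chromosome 12 (3806007-11265801, -1.11), where 24 of 25 genes were higher in A1471 and 10 separated the lines, and on chromosome 3 (30995747-36613477, -0.93, and 14886273-28798846, -0.90).

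**Figure D3:**
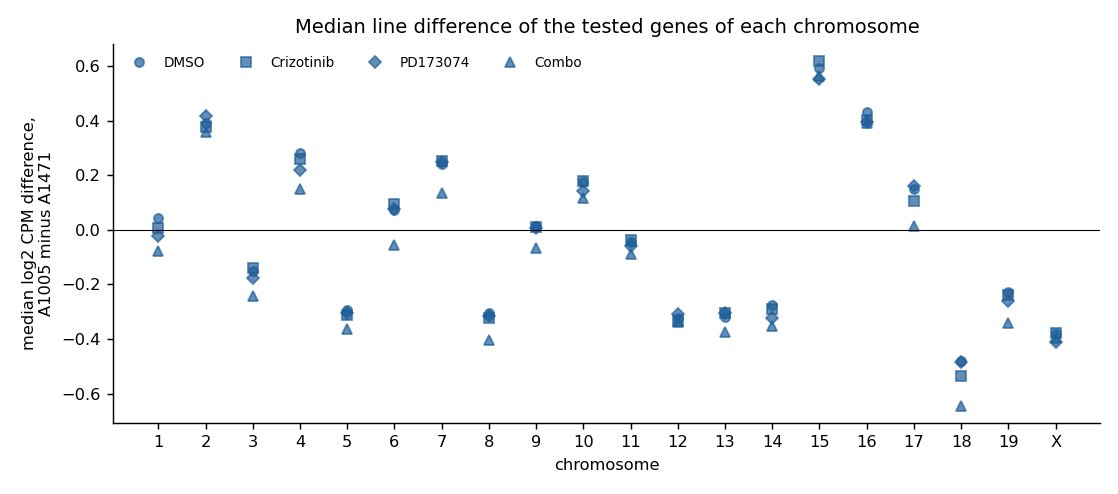
The median log2 CPM difference between A1005 and A1471 over the tested genes of each chromosome, with 1 symbol per treatment. The 4 treatments of a chromosome lay close together, from -0.64 at the lowest on chromosome 18 to 0.62 at the highest on chromosome 15.

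Collagen chains split by type. Of 22 tested chains, 6 (27.3%) separated as higher in A1005 and 6 (27.3%) as higher in A1471, against 8.89% and 3.98% of all tested genes, the shares that apply to each list below, with a median difference of 0.53. Besides type I, the chains higher in A1005 were Col5a2, Col5a3, Col12a1 and Col14a1, which belong to or decorate fibrils. Those higher in A1471 were the type IV chains Col4a2, Col4a5 and Col4a6, the type VI chains Col6a2 and Col6a3, and the basement membrane chain Col18a1. Col3a1, the type III chain, passed the test with a mean difference of 0.45 and did not separate the lines. Laminin chains also went both ways. The chain Lama4 read 67.7, 48.8, 102 and 94.2 CPM in A1005 and 0.408, 0.354, 2.17 and 2.67 CPM in A1471, whereas Lamb1 and Lamc1 averaged 298 and 337 CPM in A1005 against 821 and 821 CPM in A1471. Among integrin and laminin subunits as a whole, 5 of 25 (20%) separated as higher in A1005 and 4 (16%) as higher in A1471. Itgb3, the beta 3 integrin, averaged 73.4 ± 17.9 CPM in A1005 and 3.704 ± 2.11 CPM in A1471, and Itga2, a collagen receptor subunit, averaged 2.06 ± 1.55 and 14.5 ± 9.79 CPM. The small proteoglycan Dcn (decorin), which binds type I collagen, was higher in A1471, at 2.09, 1.94, 5.82 and 6.94 CPM in A1005 and 71.4, 69.04, 167 and 214 CPM in A1471. Of 14 matrix metalloproteinases and inhibitors, 4 (28.6%) separated as higher in A1005, of which Mmp3, Mmp10 and Mmp13 lie in the chromosome 9 run and Timp3 does not, and 3 (21.4%) as higher in A1471, with a median of 0.53.

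Of the receptor genes that the inhibitors aim at, Met differed by about 2-fold and Fgfr1 did not pass the test. Met passed the test without separating the lines, at 5038, 4731, 8181 and 5789.9 CPM in A1005 and 2572, 2094, 4507 and 2778 CPM in A1471, with log2 differences between 0.86 and 1.18 (log2 fold change 1.02 ± 0.10 SE, adjusted p = 0.000332, edgeR). These counts do not tell any reads of the Met transgene from those of the endogenous gene. Whether these lines express the transgene was not tested. The paper, citing earlier work, reports amplification of the endogenous Met gene in this mouse model. The copy number of Met in these lines was not tested. Fgfr1, an FGF receptor, read 316, 318, 239.6 and 211 CPM in A1005 and 282, 289, 242 and 294 CPM in A1471, and the ranges overlapped (log2 fold change -0.05 ± 0.12 SE, adjusted p = 0.754, edgeR). Frs2, the adaptor of FGF receptors, had a difference of 0.25 on the log2 scale (edgeR adjusted p = 0.0272), and the call was lost without the DMSO, Crizotinib or PD173074 pair (edgeR adjusted p = 0.113, adjusted p = 0.120 and adjusted p = 0.0816) and without the treatment block (edgeR adjusted p = 0.224). Of the listed ligands, only Hgf and Fgf2 separated the lines, and both were low in each line. Hgf, the ligand of Met, read 4.403, 3.75, 3.27 and 2.099 CPM in A1005 and gave 4 counts in A1471, and Fgf2 averaged 3.03 ± 1.401 CPM in A1005 and 0.2702 ± 0.195 CPM in A1471. The list of this axis had 11 tested members of 22, with 3 (27.3%) higher in A1005, which were Hgf, Fgf2 and Fgfr3, 1 (9.09%) higher in A1471, which was Fgfrl1, a decoy receptor of FGFs, and a median of 0.25. Hgf, Fgf2 and Fgfr3 passed the low-count filter through A1005 alone, so the 27.3% and the median follow in part from the filter. Fgfr2 and Fgfr4 were too low to be tested, with 1 and 3 counts in A1005 and 33 and 2 counts in A1471.

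Among 21 other receptor tyrosine kinases, 4 (19.05%) separated the lines, each as higher in A1005. Erbb2 averaged 36.8 ± 3.104 CPM in A1005 and 7.73 ± 3.54 CPM in A1471, and Egfr averaged 9.64 ± 6.12 and 1.92 ± 0.564 CPM. Flt4, the lymphatic VEGF receptor, and Epha4, an ephrin receptor, had no count in A1471 and averaged 7.61 and 6.299 CPM in A1005, where Epha4 ran from 1.08 CPM with DMSO to 16.8 CPM with the combination. Flt4 and Epha4 passed the low-count filter through A1005 alone, so the 19.05% follows in part from the filter. None of 18 ERK targets and feedback inhibitors separated the lines, against 12.9% of all tested genes, and the list median was 0.65. Of them 10 (55.6%) passed the test, near the 57.8% of all tested genes.

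Several epithelial markers were higher in A1005, while the defining junction genes were nearly unread in both lines. Of 25 epithelial and luminal markers 11 were tested, and 6 (54.5%) separated as higher in A1005 and none as higher in A1471, with a median of 2.10. By mean difference, 8 of the 11 were higher in A1005 and 3 in A1471. Krt19, Elf3, Foxa1 and Cldn3 passed the low-count filter through A1005 alone, so this share and median follow in part from the filter. Krt19, a luminal keratin, read 43.5, 41.9, 17.9 and 5.92 CPM in A1005 and gave 4 counts in A1471. Cd24a, a luminal surface marker, read 175, 190.4, 215 and 474 CPM in A1005 and 6.73, 6.44, 27.1 and 58.4 CPM in A1471. Elf3, Foxa1 and Cldn3, which are epithelial transcription factors and a claudin of tight junctions, averaged 7.65, 5.96 and 3.18 CPM in A1005 and gave 3, 4 and 1 counts in A1471. Of the junction genes, Cdh1 (E-cadherin) gave 1 count in A1005 and 4 in A1471, and Epcam gave 32 and 46. All 3 tested basal markers of 11 listed, Krt17, Mme and Egfr, separated as higher in A1005. Krt17 had no count in A1471 and passed the filter through A1005 alone, and the other listed markers were too low to be tested. This share is therefore not a result about basal markers as a group. The call of Mme was lost without the treatment block (edgeR adjusted p = 0.281).

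Single factors that drive the epithelial to mesenchymal transition separated the lines in either direction, at shares that rest on few genes. Snai1 (Snail), a repressor of E-cadherin, read 128, 103, 141 and 86.7 CPM in A1005 and 29.5, 28.7, 24.8 and 19.2 CPM in A1471 (log2 fold change 2.16 ± 0.12 SE, adjusted p = 3.35e-05, edgeR). Foxc2 went the other way, at 1.24, 1.41, 0.475 and 0.161 CPM in A1005 and 36.6, 35.8, 19.8 and 10.5 CPM in A1471, and it was lowest with the combination in both. Tcf4 averaged 71.7 ± 12.8 and 201 ± 28.5 CPM in A1005 and A1471. Twist1 read 124, 129, 83.1 and 59.2 CPM in A1005 and 98.7, 111, 90.1 and 46.4 CPM in A1471 and did not pass the test (edgeR adjusted p = 0.125). Together 1 of 12 tested members of this list (8.33%, against 8.89% of all tested genes) separated as higher in A1005 and 2 (16.7%, against 3.98%) as higher in A1471, with a median of 0.26. Vim, the mesenchymal filament gene vimentin, did not pass the test.

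Transcription factors that pattern the embryo separated the lines in both directions. Of 138 factors listed 45 were tested, 11 (24.4%) separated as higher in A1471 and 7 (15.6%) as higher in A1005, and the median was -0.21. Tbx18, a T-box factor of mesenchyme, had no count in A1005 and read 21.7, 20.1, 31.3 and 50.2 CPM in A1471, at least 638-fold higher at a limit of 3 counts. Tbx3, a T-box factor of mammary bud and limb, read 0.541, 0.536, 0.594 and 0.754 CPM in A1005 and 52.96, 53.8, 46.05 and 32.7 CPM in A1471. Eya1 gave 3 counts in A1005 and read 5.44, 6.02, 14.2 and 34.99 CPM in A1471, with its highest value under the combination. Irx3, an Iroquois homeobox factor, was read the other way, at 93.9, 86.9, 78.96 and 39.9 CPM in A1005 and 0.272, 0.425, 0.561 and 0.315 CPM in A1471 (log2 fold change 7.54 ± 0.20 SE, adjusted p = 4.34e-06, edgeR). Dlx3, Foxf1 and Eya4 also separated as higher in A1005. Of 39 HOX genes 2 were tested, and Hoxa5 separated as higher in A1471, at 0.328 ± 0.07199 CPM in A1005 and 7.904 ± 3.79 CPM in A1471.

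Of 11 tested Notch genes 5 (45.5%) separated as higher in A1005 and none as higher in A1471, with a median of 1.76. Notch4 and Dll1 passed the low-count filter through A1005 alone, so this share and median follow in part from the filter. The receptor Notch1 read 84.6, 86.1, 64.7 and 50.1 CPM in A1005 and 9.72, 9.35, 8.76 and 5.27 CPM in A1471 (log2 fold change 3.11 ± 0.10 SE, adjusted p = 7.08e-06, edgeR). The receptor Notch4 averaged 15.9 ± 8.18 and 0.436 ± 0.196 CPM, and the ligand Dll1 5.64 ± 1.62 and 0.413 ± 0.306 CPM. The targets Hes1 and Nrarp were higher in A1005 as well, with Hes1 at 27.2, 23.6, 29.2 and 24.5 CPM in A1005 and 7.41, 9.63, 3.78 and 0.865 CPM in A1471, where it was lowest with the combination. Notch2 and Jag1 did not pass the test. Of 24 tested Wnt genes 7 (29.2%) separated as higher in A1005 and 2 (8.33%) as higher in A1471, but 13 lay higher in A1005 and 11 in A1471, with a median of 0.16. Apart from Rspo3, those higher in A1005 included the ligand Wnt6 (50.6 ± 44.7 against 2.51 ± 2.55 CPM), the secreted inhibitors Notum (218 ± 24.3 against 25.8 ± 2.28 CPM) and Sfrp1 (69.1 ± 16.3 against 5.39 ± 3.04 CPM), and the target Axin2. In the TGF beta and BMP list 6 of 22 (27.3%) separated as higher in A1005, among them Tgfb1 at 125, 139, 101 and 135 CPM against 33.6, 37.8, 25.9 and 34.8 CPM in A1471, and 2 (9.09%) as higher in A1471, with a median of 0.57.

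Immune-signalling genes made up one of the lists most shifted towards A1005. Of 37 chemokines and cytokines listed 25 were tested, with a median of 2.04. Of the 25, 11 (44%) separated as higher in A1005 and 1 (4%), Cx3cl1, as higher in A1471. Members such as Tnfsf11, Il1rn and Cxcl14 passed the low-count filter through A1005 alone, so the 44% and the median follow in part from the filter. Ccl7, a monocyte attractant, read 42.02, 49.3, 57.4 and 141 CPM in A1005 and 0.136, 0, 0.981 and 1.81 CPM in A1471. Il33, an alarmin, read 126, 82.2, 200.3 and 16.5 CPM in A1005 and 0.544, 0.425, 2.103 and 0.5505 CPM in A1471. Il1rn, the antagonist of the interleukin 1 receptor, read 5.48, 4.35, 62.9 and 94.2 CPM in A1005, higher with PD173074 and the combination, and gave 2 counts in A1471. Cxcl14 read 30.2, 29.3, 24.5 and 3.28 CPM in A1005, lowest with the combination, and had no count in A1471.

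Genes of MHC class I presentation followed. Of 21 tested, 9 (42.9%) separated as higher in A1005 and none as higher in A1471, with a median of 1.16. Nlrc5, the transactivator of MHC class I genes, read 15.1, 14.9, 23.3 and 38.6 CPM in A1005 and 0, 0, 1.05 and 1.26 CPM in A1471. Psmb8, a subunit of the immunoproteasome, read 64.3, 54.1, 106 and 163 CPM in A1005 and 0.884, 0.0708, 6.03 and 9.12 CPM in A1471. Psmb9, another subunit, read 11.1, 8.37, 19.7 and 35.1 CPM in A1005 and 0, 0, 1.68 and 3.07 CPM in A1471. In both lines these 3 genes were highest with the combination. The peptide transporters Tap1 and Tap2 and the class Ib genes H2-M3, H2-Q4, H2-Q6 and H2-Q7 also separated, and reads of the H2-Q genes, which are close copies of each other, are uncertain. H2-K1, a classical class I chain, did not pass the test, and H2-D1 passed it without separating the lines. Nlrc5, Psmb9 and H2-Q7 passed the low-count filter through A1005 alone, so the share and median of this list follow in part from the filter. Type I interferon response genes were less shifted, with 5 of 31 (16.1%) higher in A1005, which were Oasl1, Rsad2, Oas1a, Oas3 and Zbp1, none higher in A1471 and a median of 0.75.

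Markers of other cells were checked because a line can hold more than tumour cells. Of 12 immune markers 2 were tested, Ptprc (CD45), which read 13.4, 13.7, 20.1 and 16.9 CPM in A1005 and gave 3 counts in A1471, and Cd68, which averaged 18.5 ± 3.98 and 6.03 ± 1.84 CPM. The summed level of the list was between 32.2 and 41.1 CPM in A1005 and between 4.77 and 8.89 CPM in A1471. The macrophage markers Adgre1 and Lyz2, the T cell marker Cd3g and the killer cell marker Nkg7 had no count in either line. None of 7 endothelial markers was tested, and their summed level was at most 1.72 CPM in A1005 and 3.22 CPM in A1471. Of 10 fibroblast markers 6 were tested, 2 separated as higher in A1005 (Col1a1 and Col1a2) and 1 as higher in A1471 (Dcn), and Pdgfra did not pass the test, while Fap, Lum and Dpt gave 1, 1 and 6 counts in A1005 and 2, 0 and 13 in A1471. Of 6 adipocyte markers 1 was tested, Fabp4, which passed the test as higher in A1005, and Adipoq, Plin1, Cidec and Lep had no count. Of 8 erythroid and neural markers 1 was tested, Tubb3, which did not pass the test. The part of other cells in the differences was not tested beyond these levels.

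**Figure D4:**
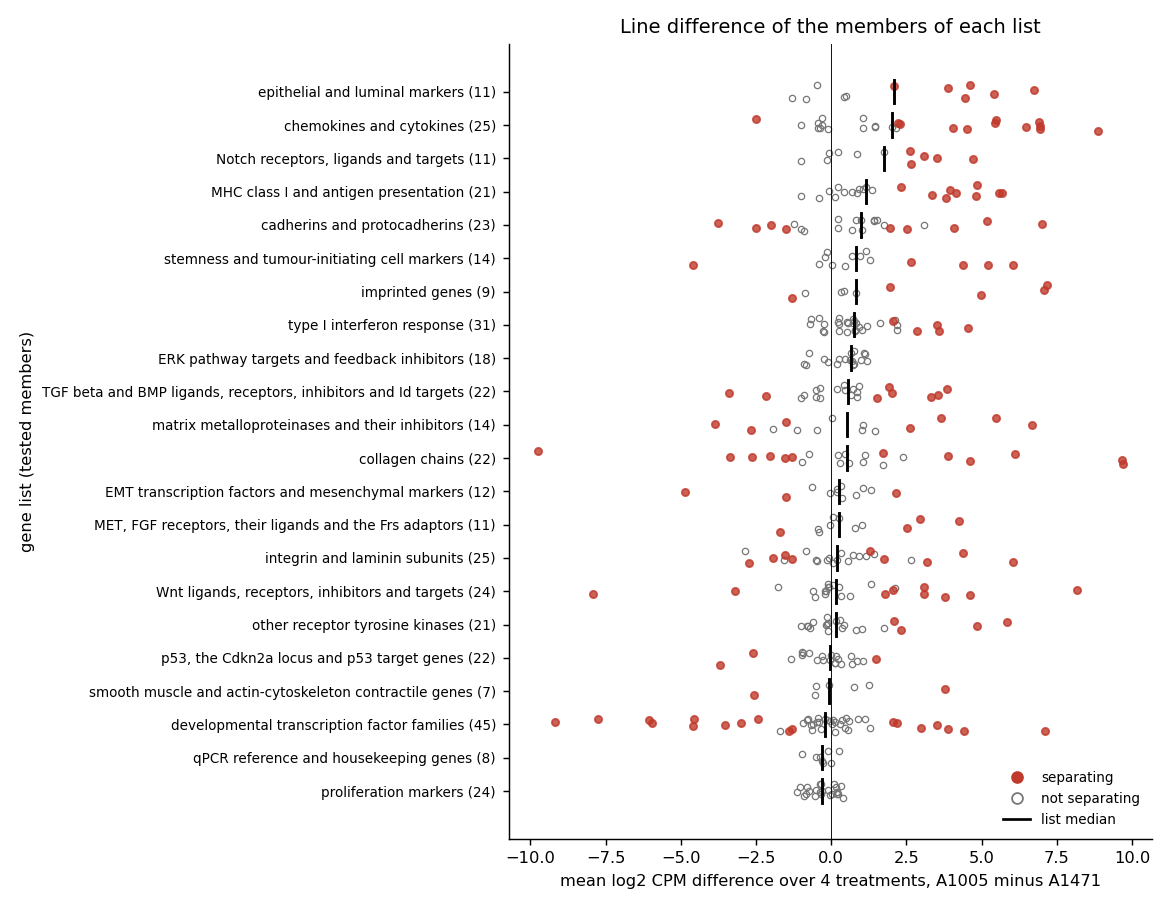
The mean log2 CPM difference between A1005 and A1471 over the 4 treatments for each tested member of the lists with at least 7 tested members, with separating genes filled and the list median as a black bar. Epithelial markers, chemokines and cytokines, Notch genes and MHC class I genes had the highest medians, from 2.10 to 1.16, and proliferation markers had the lowest at -0.31. The 4 highest medians follow in part from the low-count filter, which some members passed through A1005 alone.

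Of 14 tested stem cell markers 4 (28.6%) separated as higher in A1005 and 1 (7.14%) as higher in A1471, with a median of 0.81. Ly6a (Sca-1), a progenitor surface marker, read 131, 92.1, 172 and 109 CPM in A1005 and 1.43, 0.637, 3.93 and 2.44 CPM in A1471, and A1129 averaged 115 CPM. Lgr6, a stem cell receptor for R-spondins, read 109, 136, 75.9 and 48.6 CPM in A1005 and 10.9, 13.1, 1.33 and 0 CPM in A1471, with no count in A1471 under the combination. Sox2 had no count in A1005 and averaged 3.17 ± 1.04 CPM in A1471. Cd44 and Mybl2 did not pass the test, with edgeR adjusted p = 0.368 for Cd44 and edgeR adjusted p = 0.883 for Mybl2, and Hmga2 passed it with log2 differences between 0.85 and 1.03, but not without the treatment block (edgeR adjusted p = 0.346). Among 23 cadherins 5 (21.7%) separated as higher in A1005 and 4 (17.4%) as higher in A1471, including Pcdh7, with 17.5 ± 3.64 CPM in A1005 and no count in A1471, and Pcdh19, at 1.41 ± 0.627 and 29.9 ± 27.8 CPM, and the median was 0.996. Of 7 smooth muscle and contractile genes 1 separated each way, Des as higher in A1005 (2.22 against 0.0393 CPM) and Tpm2 as higher in A1471 (17.8 against 108 CPM).

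The tumour suppressor genes Trp53 and Cdkn2a were both lower in A1005. Trp53, of which 1 allele is floxed, read 4.33, 2.68, 2.55 and 3.23 CPM in A1005 and 7.82, 6.302, 5.61 and 5.11 CPM in A1471 (log2 fold change -0.96 ± 0.17 SE, adjusted p = 0.00321, edgeR), and these counts do not tell the floxed from the other allele. Cdkn2a, which encodes p16 and p19Arf, read 294, 302, 262 and 403 CPM in A1005 and 502, 542, 565 and 870.4 CPM in A1471 (log2 fold change -0.96 ± 0.09 SE, adjusted p = 0.000262, edgeR). Neither separated the lines, because the difference was under 2-fold in at least 1 treatment. Of 22 tested genes of p53 and its targets, Phlda3 separated as higher in A1005, Perp and Pmaip1 (Noxa, with no count in A1005) as higher in A1471, and the median was -0.03. None of 24 proliferation markers and none of 8 reference genes separated the lines, with medians of -0.31 and -0.30. Of these, 12 proliferation markers (50%) and 4 reference genes (50%) passed the test, against 57.8% of all tested genes. The reference genes Gapdh, Hprt and Actb did not pass it (edgeR adjusted p = 0.97 for Gapdh, adjusted p = 0.0574 for Hprt and adjusted p = 0.0625 for Actb).

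The change from DMSO to each inhibitor, taken within a line, had a larger root mean square over tested genes in A1471. It was 0.892 in A1005 and 1.17 in A1471 for the combination, 0.5001 and 0.647 for PD173074, and 0.284 and 0.305 for Crizotinib. With the combination 1128 genes were 2-fold higher and 1044 2-fold lower in A1005, against 2191 and 1431 in A1471, and 1575 moved 2-fold in the same direction in both lines while 42 moved in opposite directions. With PD173074, 408 genes were 2-fold higher and 284 2-fold lower in A1005, against 905 and 209 in A1471, so more genes were lower in A1005. There is 1 library for each line and treatment, so these counts carry no test. Whether the line difference with the combination departed from its mean under the other 3 treatments was tested by edgeR, which called 0 of 12874 genes (lowest adjusted p = 0.0532). This sets the single combination pair against the spread of the line difference over 3 other treatments, which stand in for replicates that the design lacks, so its p-values order genes and carry no replicate error of the combination. At an unadjusted p under 0.05 there were 3461 genes, DESeq2 called 696 and limma-voom 286, so the answer depended on the tool. The genes with the smallest p included Rapgef3, a cAMP-activated exchange factor, whose difference was 1.05, 1.23 and 1.01 under DMSO, Crizotinib and PD173074 and 4.87 with the combination. Dusp4, an ERK phosphatase, differed by 0.42, 0.61, 0.71 and 2.71 in the same order. Slit2, an axon guidance ligand, differed by 4.53, 4.18, 3.43 and 0.14, and its level in A1471 was 1.97, 3.04, 5.397 and 21.2 CPM.

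A1129 was nearer to A1471 than to A1005 at the separating genes. Its mean log2 CPM was nearer to A1471 for 1239 of the 1657 genes and nearer to A1005 for 418, at about the same share for genes higher in A1005 (74.9% nearer to A1471) and for genes higher in A1471 (74.4%). On a scale from 0 at A1471 to 1 at A1005 its median place was 0.15. By the same rule A1129 was separated from A1005 by 1901 genes and from A1471 by 945 genes, comparisons that share libraries with that of A1005 and A1471. Of the 41 genes read in A1005 and near absent from A1471, A1129 had at most 3 counts for 16 and at least 1 CPM for 12. Of the 32 genes read in A1471 and near absent from A1005, it had at least 1 CPM for 28, and the 3 with at most 3 counts were Evc, Evc2 and Crmp1.

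**Figure D5:**
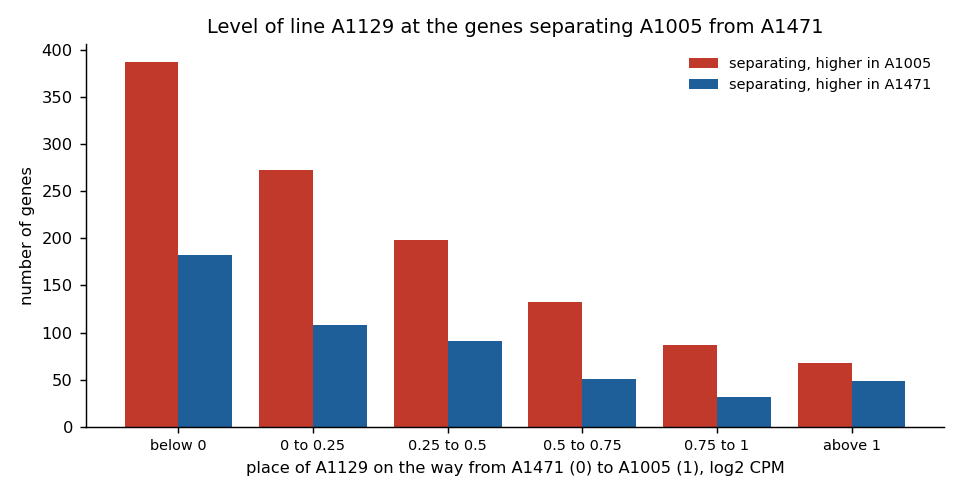
The number of separating genes by the place of A1129 between the mean log2 CPM of A1471 (0) and A1005 (1), for genes higher in A1005 (red) and higher in A1471 (blue). The lowest bins were the fullest in both directions, with 387 and 182 genes where A1129 lay beyond A1471.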

How the data were processed

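Tumoursphere RNA of the lines A1005, A1471 and A1129 was sequenced by the study on a NextSeq500 after 24 h of treatment. Per the submitters' processing notes, reads were demultiplexed with bcl2fastq, aligned to mm10 with STAR and counted with HTSeq. The authors deposited raw counts per gene for 55573 genes. Versions, the annotation release and the strand setting are not given in the sources used here. Gene positions came from GENCODE M21 (GRCm38, the same assembly as mm10).

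The 8 libraries of A1005 and A1471 were fitted with edgeR 4.0.16 (R 4.3.3), using its expression filter by line (minimum count 10, minimum total 15), TMM scaling, treatment as a block and the quasi-likelihood test. P-values were adjusted by Benjamini-Hochberg over all 12874 tested genes and called at 0.05. CPM are from the same scaling. Counting error alone is covered by the limit of 3 counts over the 4 libraries of a line. DESeq2 1.42.0, limma-voom 3.58.1, other scalings, filters and fold limits, and fits without 1 treatment were alternatives. In counts simulated for this comparison over 12727 genes, 200 of 200 genes changed by 2 on the log2 scale were called, with 9 false calls. The simulation gave both lines the same treatment effects, 1 fixed dispersion and few changed genes. The data differ in these respects, so its false calls do not measure those of the real fit.

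The text names the 12 genes per direction with the largest smallest difference and a mean of at least 10 CPM, up to 5 separating members of each list, and a short list of receptors, tumour suppressors, stem cell and reference genes. It also names the 3 highest genes of each chromosome 9 window, and some of the 6 genes per direction with the smallest interaction p. Neighbours of these genes, other list members and the genes called out as such in the text were chosen after their values were seen. The members, lists and tests were chosen with earlier results of these data known.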

Additional observations from a re-analysis of the deposited data

Results flagged for a closer look

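Among 190 sets of the 4 libraries of 1 line, 13 (6.84%) held a library whose gap to the others passed Dixon's 95% critical value for 4 samples, and chance flags about 1 in 20 sets. The 4 libraries of a set carry different treatments, and 12 of the 13 set apart were the combination library. Of the 13, 10 lay in A1005 and 3 in A1471. A set was formed only where a gene averaged at least 1 CPM in the line, so the lines need not hold equal numbers of sets. The 10 and 3 therefore do not compare the lines.

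Proliferation and reference genes were among those low with the combination. Mybl2 in A1005 was at 10.7 CPM with the combination against 83.4 to 91.7 CPM in the other libraries of the line. Stmn1 in A1005 was at 28.4 CPM against 55.1 to 55.6 CPM. Hprt was at 85.6 CPM against 109.8 to 115 CPM in A1005, and at 74.9 CPM against 161 to 173 CPM in A1471. Mre11a in A1005, in the chromosome 9 run, was at 118 CPM against 219 to 246 CPM.

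Signalling genes were set apart in both directions. Cxcl14 in A1005 was at 3.28 CPM with the combination against 24.5 to 30.2 CPM, and Dll1 in A1005 at 3.23 CPM against 6.26 to 6.77 CPM. Notch1 in A1471 was at 5.27 CPM with the combination against 8.76 to 9.72 CPM. Fgfrl1 in A1471 was higher with the combination, at 88.1 CPM against 36.3 to 39.7 CPM. Casp1 in A1005 was at 474 CPM with the combination against 259.8 to 287 CPM, Als2cl in A1005 at 45.5 CPM against 27.6 to 29.7 CPM, and Des in A1005 at 3.55 CPM against 1.66 to 1.85 CPM. Fgfr3 in A1005 was set apart with Crizotinib, at 2.75 CPM against 1.31 to 1.47 CPM.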

How the results depend on the processing

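The count of genes differing between the lines was 7447 with the treatment block and 4607 without it, and it lay between 5790 and 8331 when 1 treatment was left out. The separating genes numbered 773 (536 higher in A1005 and 237 higher in A1471) when every library had to hold at least 10 counts, 2874 (1725 and 1149) at 1.5-fold and 866 (613 and 253) at 4-fold in every treatment, and between 1746 and 2004 without 1 treatment, which asks for 3 differences in place of 4. The test of the combination against the other treatments gave 0 genes in the edgeR fit reported, 696 with DESeq2, 286 with limma-voom, 1 with DESeq2 size factors, 339 with total counts, 187 with at least 10 counts in every library and 875 with all 12 libraries. Without 1 treatment it gave between 0 and 4839, the highest without PD173074, and the cause was not tested. The chromosome medians moved to -0.37 for X and 0.44 for 16 with total counts, and to -0.31 for 8 and 0.43 for 16 with the DMSO pair alone. Among genes whose lines did not differ in the test, the sign depended on the treatment left out, with log2 fold changes between -0.12 and 0.10 for Fgfr1, -0.10 and 0.26 for Gapdh, -0.054 and 0.090 for Mybl2, and -0.080 and 0.51 for Vcam1. A set of 106 separating genes was checked, which left out some genes named in the text, such as Endod1, Piwil4 and Man2b2. Of the 106, 102 kept their call in every alternative run that tested them, and none reversed. Mme, Nrarp, Prkg2 and Rapgef3 lost the call in at least 1. This check read the adjusted p alone, and the 2-fold requirement was not rechecked gene by gene. A run whose filter dropped a gene was left out for that gene. Of genes called without separating the lines, or read in the comparison of the combination, Dusp4, Frs2, Hmga2, Slit2 and Xist lost the call in at least 1. With 1 library per line and treatment, differences between cultures of 1 line could not be measured.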
